A study of Mus musculus with 8 samples.

Results

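The genes described here are 10 that build peptide-loaded MHC class I molecules, taken by name from a count table of 24421 genes. They are the class I heavy chains H2-K1, H2-D1 and H2-T23, their shared light chain B2m, the peptide transporter subunits Tap1 and Tap2, the loading chaperones Tapbp (tapasin), Calr (calreticulin) and Pdia3 (ERp57), and the transcriptional activator Nlrc5. The rule that picks them sets no threshold on a measured value, and 10 of 10 passed the filter on low counts. RNA was sequenced from neutrophils isolated with magnetic beads from the bone marrow of 8-week-old C57BL/6 mice that were wild type (WT) or lacked exon 1 of Padi4 (Padi4 KO), the gene of an enzyme that turns arginine into citrulline in proteins. Cells of each genotype were either unstimulated or given R848, an agonist of Toll-like receptor 7, at 1 μg/ml for 6 h, so that 4 groups of 2 libraries resulted. The titles give 0 h for the unstimulated cells while the study's methods give 6 h of culture for both conditions, so that time in culture and R848 cannot be told apart if the titles hold. The labels do not say that the 2 libraries of a group came from separate mice, and the methods say only that samples were run in duplicate. The 2 libraries of a group differed by more than counting noise, with a chi-square per degree of freedom of 1.67 for R848-treated WT and of 1.05 to 1.162 for the other groups, and every p-value therefore measures only the spread between these libraries, which may be technical.

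MHC class I molecules display peptides from the cell's own proteins to CD8+ T cells and to receptors of natural killer cells. Peptides made by the proteasome are pumped into the endoplasmic reticulum by the Tap1 and Tap2 pair, where tapasin, calreticulin and ERp57 hold the empty heavy chain and B2m until a peptide fits. Nlrc5 raises transcription of the heavy chains, B2m, Tap1 and immunoproteasome genes, and the same promoters also respond to interferons and to NF-kB.

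R848 was followed by a rise in B2m, H2-K1 and H2-D1 in both genotypes, by a rise in Tapbp, and by a fall in H2-T23 and Tap2. Pdia3 was called lower in both genotypes, a call that DESeq2 made in neither. H2-K1, H2-D1, H2-T23, B2m, Tap2 and Tapbp were called lower in unstimulated Padi4 KO than in WT cells, but these calls depended on the scaling and the tool, and 5 of the 6 were called with median-of-ratios factors in edgeR, 0 with library size alone and 1 (H2-D1) by DESeq2. After R848, H2-K1 stood at 940 ± 25.9 and 938 ± 28.0 CPM (counts-per-million) in WT and Padi4 KO cells (mean ± SD, n = 2 each).

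The promoters of 4 members are shown because these genes responded differently to R848: H2-K1, H2-D1 and B2m rose, and H2-T23, a heavy chain of the same locus, fell. RefSeq start sites on GRCm38.p6 were found for 8 of the 10 members. Each window holds 250 bases before the start and 50 bases from it, 5′ to 3′ on the gene's strand. Capitals mark matches to 5 motifs searched on both strands, namely GAAANNGAA (interferon response type), TTCNNNGAA (STAT type), GGGNNTTCC (NF-kB type), TGACGC (X2 type) and CCAAT, which reads ATTGG on the other strand. No 2 matches overlapped in these windows. The H2-K1 window, the first of 2 RefSeq starts of that gene, is chr17:34000298-34000597 on the minus strand, that of H2-D1 is chr17:35262844-35263143 on the plus strand, that of B2m is chr2:122147437-122147736 on the plus strand and that of H2-T23 is chr17:36032652-36032951 on the minus strand.
H2-K1: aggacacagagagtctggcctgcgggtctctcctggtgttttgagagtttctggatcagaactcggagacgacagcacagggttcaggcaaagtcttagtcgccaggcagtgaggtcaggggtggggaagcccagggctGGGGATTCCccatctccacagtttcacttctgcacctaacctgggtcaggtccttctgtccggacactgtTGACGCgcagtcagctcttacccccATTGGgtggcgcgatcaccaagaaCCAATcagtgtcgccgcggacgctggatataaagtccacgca
H2-D1: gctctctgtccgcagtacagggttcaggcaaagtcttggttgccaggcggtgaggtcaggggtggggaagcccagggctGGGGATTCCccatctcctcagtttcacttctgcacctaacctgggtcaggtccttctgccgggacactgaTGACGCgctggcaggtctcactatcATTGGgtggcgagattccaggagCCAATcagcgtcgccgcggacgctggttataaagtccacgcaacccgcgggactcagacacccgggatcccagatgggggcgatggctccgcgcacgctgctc
B2m: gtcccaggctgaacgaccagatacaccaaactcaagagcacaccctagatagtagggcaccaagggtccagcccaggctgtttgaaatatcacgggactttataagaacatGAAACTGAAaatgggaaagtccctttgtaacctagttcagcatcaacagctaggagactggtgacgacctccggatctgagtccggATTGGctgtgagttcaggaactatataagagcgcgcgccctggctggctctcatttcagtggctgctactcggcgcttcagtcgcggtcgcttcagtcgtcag
H2-T23: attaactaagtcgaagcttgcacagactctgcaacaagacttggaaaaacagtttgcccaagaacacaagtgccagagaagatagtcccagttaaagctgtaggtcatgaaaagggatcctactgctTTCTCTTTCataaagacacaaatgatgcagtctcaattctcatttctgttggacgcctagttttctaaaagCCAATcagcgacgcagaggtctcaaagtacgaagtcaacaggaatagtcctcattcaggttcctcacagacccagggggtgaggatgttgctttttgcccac

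H2-K1 and H2-D1 shared GGGGATTCC, TGACGC and a pair of CCAAT boxes in the same order. In both, TGACGC began 70 bases after GGGGATTCC, and the reverse-strand CCAAT began 25 bases after TGACGC. Laid on each other at GGGGATTCC without gaps, 176 of 240 bases (73.3%) were the same. B2m held GAAACTGAA beginning 139 bases before its start and no match to the NF-kB type letters. H2-T23 held GAAAGAGAA on the reverse strand, at 123 bases before its start, and also no match to the NF-kB type letters. Of 32851 mouse promoter windows of this length, GGGNNTTCC was in 5.82%, GAAANNGAA in 8.56%, TTCNNNGAA in 8.30%, TGACGC in 7.40% and CCAAT in 37.4%. A match describes the letters of the window and no binding was measured. Only these letters were searched, so a window without a match can still hold a site of that type in other letters. The matches therefore do not divide the promoters into types.

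On GRCm38, 6 members lie in the MHC on chromosome 17: Tapbp (chr17:33915899-33929292), H2-K1 (chr17:33996017-34000347), Tap1 (chr17:34187553-34197225), Tap2 (chr17:34203527-34216321), H2-D1 (chr17:35262730-35267499) and H2-T23 (chr17:36029773-36032855). B2m and Pdia3 (chr2:121413775-121438687) lie on chromosome 2, and Calr (chr8:84841850-84846934) and Nlrc5 (chr8:94434356-94527272) on chromosome 8. All are annotated as protein-coding, and reads were counted per gene, not per exon or transcript.

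Libraries held between 562446 and 1177972 reads on genes. Padi4 checked the labels, with 527 to 590 counts in unstimulated WT, 166 to 234 in R848-treated WT and 21 to 54 in the 4 Padi4 KO libraries. Values below are CPM scaled by edgeR's trimmed mean of M-values (TMM); unscaled CPM are relative to the library total. The test was edgeR's quasi-likelihood test over 12254 genes with Benjamini-Hochberg adjustment (FDR), and a gene was called at an FDR under 0.1.

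B2m was the most abundant member and had the largest fold rise of the 10 in both genotypes. Its counts were 569 and 615 in unstimulated WT and 1230 and 1448 in R848-treated WT libraries, which came to 880 and 1062 CPM against 2507 and 2564 CPM. In Padi4 KO cells it read 819 and 883 CPM without and 2259 and 2206 CPM with R848. All 4 R848 libraries stood far above all 4 unstimulated ones. B2m rose by 1.39 ± 0.077 (log2, SE) in WT (FDR 1.96e-70, edgeR) and by 1.39 ± 0.072 in Padi4 KO cells (FDR 1.14e-80, edgeR), 2.62-fold in each. The difference between these responses was -0.00044 ± 0.11, with a 95% interval from -0.22 to 0.21. It was -0.18 relative to the median of genes averaging 10 counts or more and -0.23 without the erythroid genes, so that its size depended on scaling. B2m lies on chromosome 2, spans 122147686 to 122153083 on GRCm38 (mm10), and shares none of its 50-base exon windows with another gene.

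H2-K1 and H2-D1 encode the heavy chains that present peptides to CD8+ T cells in C57BL/6 mice. H2-K1 read 533 and 483 CPM in unstimulated WT, 921 and 958 in R848-treated WT, 430 and 411 in unstimulated Padi4 KO and 958 and 918 CPM in R848-treated Padi4 KO libraries. The R848 groups did not overlap the unstimulated ones, and after R848 the genotypes overlapped. H2-K1 rose 1.85-fold in WT (log2 0.88 ± 0.093, FDR 7.98e-20, edgeR) and 2.24-fold in Padi4 KO (SE 0.083 on the log2 scale, FDR 5.73e-43, edgeR). H2-D1 read 484 and 463 CPM, then 687 and 719 CPM with R848 in WT, and 375 and 341 CPM, then 643 and 633 CPM in Padi4 KO. It rose 1.48-fold in WT (0.57 ± 0.099, FDR 1.00e-07, edgeR) and 1.79-fold in Padi4 KO (0.84 ± 0.088, FDR 2.50e-20, edgeR). The ratio of H2-K1 to H2-D1 per kb of exon was 0.97 and 0.92 in unstimulated WT, 1.18 and 1.17 after R848, 1.00 and 1.06 in unstimulated Padi4 KO and 1.31 and 1.27 after R848. It was thus higher in all 4 R848 libraries than in all 4 unstimulated ones. The responses of H2-K1, H2-D1 and B2m kept their call and direction under each of the 17 alternatives run for them.

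H2-T23 encodes the heavy chain of Qa-1, a nonclassical class I molecule read by the CD94/NKG2 receptors of natural killer cells. It moved against the other heavy chains. H2-T23 read 323 and 276 CPM in unstimulated WT and 216 and 202 CPM in R848-treated WT libraries, and 210 and 224 CPM against 188 and 155 CPM in Padi4 KO. The groups did not overlap within either genotype. It fell by 0.53 ± 0.13 on the log2 scale in WT (FDR 0.000629, edgeR) and by 0.34 ± 0.11 in Padi4 KO (FDR 0.0114, edgeR). The call in Padi4 KO was lost with counts thinned to the smallest library (log2 -0.25) and without unstimulated Padi4 KO replicate 2 (-0.29).

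**Figure D1:**
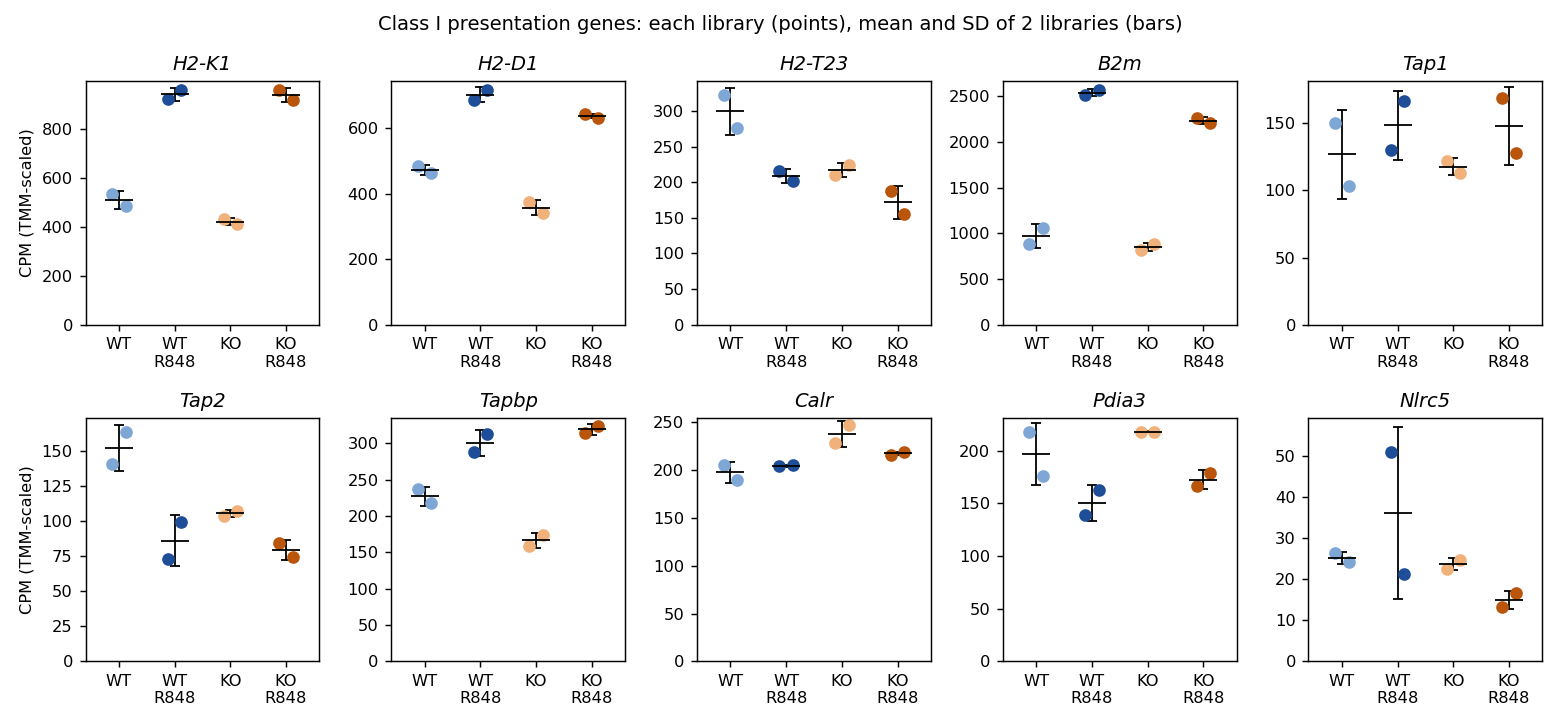
Level of each member in CPM (TMM-scaled, y axis from 0) in the 4 groups, with 1 point per library and bars for the mean and SD of 2 libraries. B2m, H2-K1 and H2-D1 are higher in both R848 groups, while Nlrc5 after R848 in WT is split between 51.0 and 21.2 CPM.

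The transporter subunits, which work as a pair, parted. Tap2 read 141 and 164 CPM in unstimulated WT and 73.4 and 99.1 CPM with R848, and 104 and 107 against 84.4 and 74.4 CPM in Padi4 KO. Tap2 fell by 0.80 ± 0.19 on the log2 scale in WT (FDR 0.000185, edgeR) and by 0.41 ± 0.15 in Padi4 KO (FDR 0.0272, edgeR). The WT fall was not called without R848-treated WT replicate 1 (log2 -0.48), nor the Padi4 KO fall by DESeq2 (-0.50) or without unstimulated Padi4 KO replicate 2 (-0.38). Tap1 read 150 and 104 CPM against 130 and 166 CPM in WT, which overlapped, and its change there was 0.23 ± 0.17 (FDR 0.391, edgeR). That change was called without unstimulated WT replicate 1 (0.53) and without R848-treated WT replicate 1 (0.52), and it was -0.004 at the lowest with 1 library left out. In Padi4 KO, Tap1 read 122 and 113 CPM without and 169 and 128 CPM with R848, a rise of 0.35 ± 0.13 (FDR 0.0337, edgeR). This call was lost under 9 of 17 alternatives, and the value came to -0.016 without R848-treated Padi4 KO replicate 1.

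Within a library, the ratio of the transporter subunits does not depend on how libraries are scaled. Tap1 per kb of exon over Tap2 per kb was 0.74 and 0.44 in unstimulated WT and 0.81 and 0.73 in unstimulated Padi4 KO libraries. With R848 it was 1.23 and 1.159 in WT and 1.38 and 1.18 in Padi4 KO. Per kb, all 4 unstimulated libraries had less Tap1 than Tap2 and all 4 R848 libraries more. The side of 1 depends on the exon lengths used, while the higher ratio with R848 does not. In CPM not divided by length, Tap1 was above Tap2 in unstimulated WT replicate 1 (150 against 141). It was also above in unstimulated Padi4 KO (122 against 104 and 113 against 107), and below in unstimulated WT replicate 2 (104 against 164). With 2 libraries a group no test was run on the ratio. Tap1 shares 212 of 5476 exon bases with Psmb9 on the other strand, and Tap2 shares 698 of 3781 with Gm15821 and Gm20496 on the other strand. The strand setting of the counting is not given in the sources used here. The ratio of B2m to the sum of H2-K1 and H2-D1, per kb, was between 2.77 and 3.77 in unstimulated and between 4.57 and 5.03 in R848-treated libraries.

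**Figure D2:**
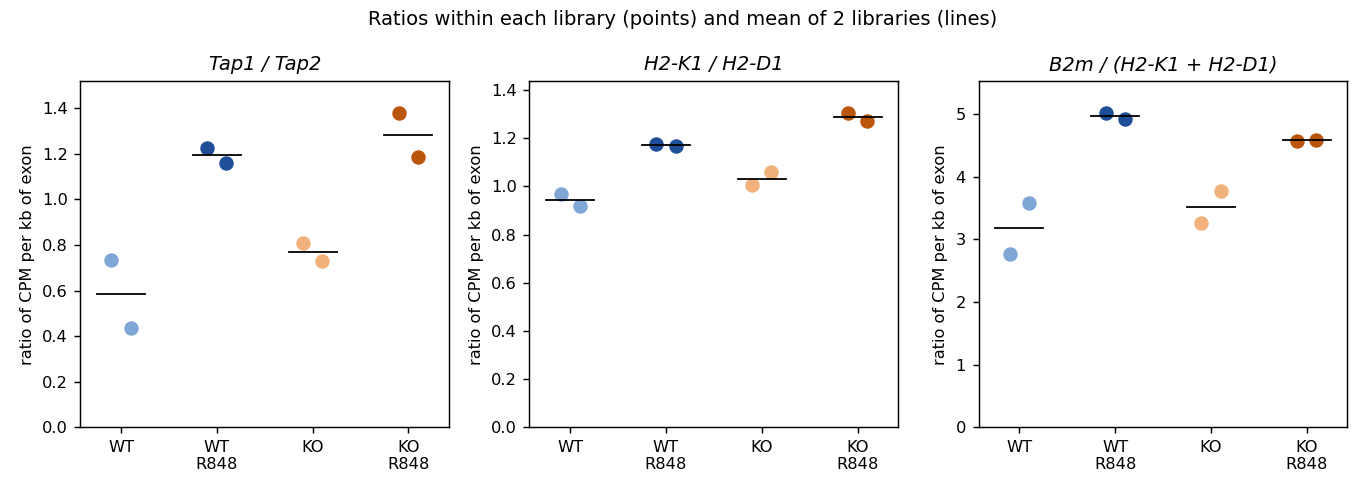
Ratios of CPM per kb of exon within each library (points, mean of 2 libraries as a line) for Tap1 over Tap2, H2-K1 over H2-D1 and B2m over the sum of H2-K1 and H2-D1. Tap1 over Tap2 per kb lies below 1 in the 4 unstimulated and above 1 in the 4 R848 libraries, and the side of 1 depends on the exon lengths used.

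Tapbp, tapasin, bridges the transporter and the empty heavy chain. It read 237 and 218 CPM in unstimulated WT, 287 and 313 in R848-treated WT, 159 and 174 in unstimulated Padi4 KO and 314 and 324 CPM in R848-treated Padi4 KO libraries. Unstimulated Padi4 KO cells were lowest, and both R848 groups lay above both unstimulated groups. Tapbp rose 1.32-fold in WT (0.40 ± 0.13, FDR 0.0108, edgeR) and 1.90-fold in Padi4 KO (0.92 ± 0.11, FDR 2.90e-16, edgeR). The WT call was lost with scaling to library size alone (log2 0.10) and without unstimulated WT replicate 2 (0.35). Of its 3628 exon bases, 1053 overlap other genes, mostly the antisense gene Gm19412, and without the strand setting reads of Tapbp and Gm19412 cannot be told apart.

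Calr and Pdia3 are general chaperones of glycoprotein folding that also serve class I loading. Calr read between 190 and 247 CPM in all 8 libraries. Its response was 0.05 ± 0.15 in WT (FDR 0.891, edgeR) and -0.14 ± 0.11 in Padi4 KO (FDR 0.365, edgeR). The latter was called lower under 4 of 17 alternatives, among them library size alone (-0.52) and the fit without the erythroid genes (-0.27). Pdia3 read 218 and 176 CPM against 139 and 163 CPM in WT and 218 and 218 against 166 and 179 CPM in Padi4 KO. It fell by 0.39 ± 0.16 in WT (FDR 0.0521, edgeR) and by 0.34 ± 0.11 on the log2 scale in Padi4 KO (FDR 0.0137, edgeR). In WT the fall was not called under 9 of 17 alternatives, with values from -0.14 to -0.69 over all of them, and in Padi4 KO under 3 of 17.

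Nlrc5 had between 12 and 34 counts a library. It read 26.3 and 24.2 CPM in unstimulated WT, 51.0 and 21.2 in R848-treated WT, 22.6 and 24.7 in unstimulated Padi4 KO and 13.3 and 16.5 CPM in R848-treated Padi4 KO libraries. One R848-treated WT library was far above the rest and the other lay just below the unstimulated ones. Its response was 0.47 ± 0.36 in WT (FDR 0.391, edgeR) and -0.67 ± 0.32 in Padi4 KO (FDR 0.106, edgeR). The Padi4 KO value was called under 8 of 17 alternatives, between -0.69 and -1.05, and was -0.23 with thinned counts. With 1 library left out, the WT value lay between -0.11 and 1.11, and it was called without R848-treated WT replicate 2 (1.11).

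Counted together, 4 of 10 members rose and 3 fell in WT, where 13.5% of all tested genes rose and 16% fell. In Padi4 KO, 5 rose and 3 fell, against 19.2% and 15.9% of all tested genes. Among the 6912 genes averaging 10 counts or more, 1526 rose and 1605 fell in WT and 2107 rose and 1410 fell in Padi4 KO. More than 2-fold, B2m rose in WT and B2m and H2-K1 rose in Padi4 KO, where 7.17% and 8.07% of all tested genes did. No member fell over 2-fold in either genotype, where 10.8% and 8.84% of all tested genes did. The members' median log2 change was 0.31 in WT and 0.10 in Padi4 KO, beside -0.17 and -0.03 over all tested genes and -0.07 and 0.08 over those averaging 10 counts or more. DESeq2 called 4 higher and 2 lower in WT, and 4 higher and 1 lower in Padi4 KO. Monocyte and macrophage markers moved with R848 as well, from a sum of 487 to 548 CPM (unscaled) without R848 to 2903 to 3001 CPM with it in WT libraries, and from 1175 to 1213 up to 3060 to 3122 in Padi4 KO. That sum was carried by Adgre1 and Csf1r. Of the 8 markers, 3 rose and 3 fell in WT and 3 rose and 4 fell in Padi4 KO, and F13a1 and Ccr2 were among those that fell. The sum over 7 stromal and endothelial markers went from 201 to 229 CPM down to 32.9 to 39.3 CPM in WT and from 523 to 661 down to 40.7 to 47.6 CPM in Padi4 KO. The part of these shifts in the members' responses was not tested. The 10 genes together took 0.323% and 0.325% of the counts of unstimulated WT libraries and 0.419% and 0.457% after R848, and 0.332% and 0.343% against 0.479% and 0.466% in Padi4 KO.

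**Figure D3:**
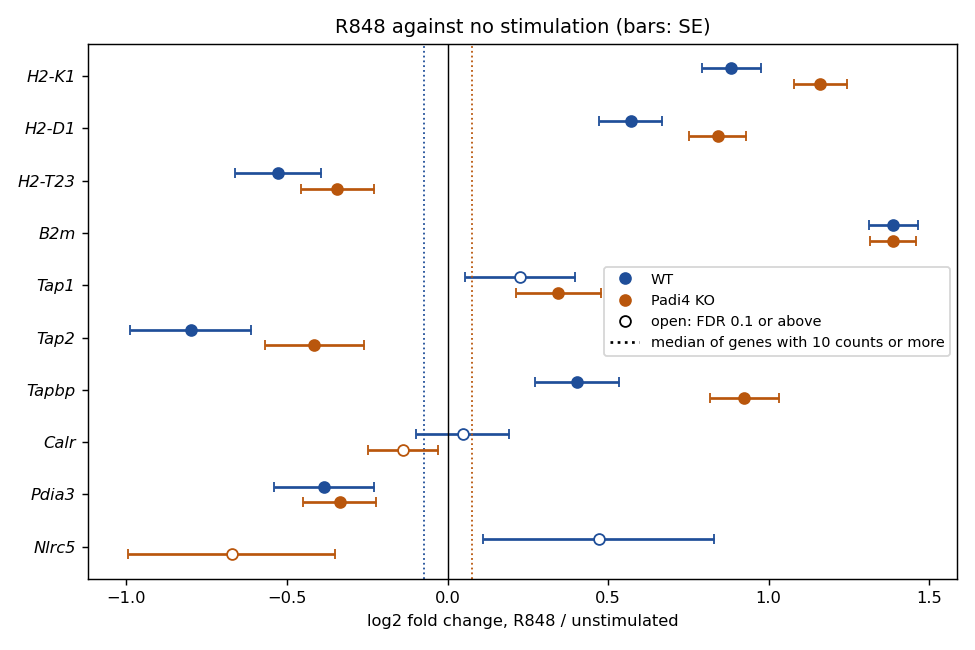
Log2 fold change of R848 over unstimulated (x axis) for each member in WT and Padi4 KO, with bars for the SE, filled points for an FDR under 0.1 and dotted lines at the median over genes averaging 10 counts or more. B2m lies at 1.39 in both genotypes, and H2-T23, Tap2 and Pdia3 lie below 0 in both.

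The other side of the design compares the levels of these genes in Padi4 KO and WT libraries. In unstimulated cells, 6 of 10 members were lower in Padi4 KO, against 14.4% of all tested genes. Of the 6912 genes averaging 10 counts or more, as every member does, 1675 were lower. The log2 difference, Padi4 KO over WT, was -0.52 ± 0.15 for Tap2 (FDR 0.00648, edgeR), -0.46 ± 0.12 for H2-T23 (FDR 0.000812, edgeR), -0.44 ± 0.13 for Tapbp (FDR 0.00550, edgeR) and -0.41 ± 0.098 for H2-D1 (FDR 0.000392, edgeR). It was -0.28 ± 0.095 for H2-K1 (FDR 0.0204, edgeR) and -0.18 ± 0.079 for B2m (FDR 0.0877, edgeR). The libraries of the 2 genotypes did not overlap for these genes, apart from B2m. Here and for the responses above, the share of all tested genes without overlap was not counted, so non-overlap adds no weight to a call. In this fit none was called higher, against 9.55% of all tested genes, where 1 member (Calr, 0.27 ± 0.12) had an unadjusted p under 0.05 and DESeq2 called 0. Calr was called higher under 9 of its 17 alternatives, with values from 0.28 to 0.56.

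These calls depended on the scaling and the tool. The median of the 6912 genes averaging 10 counts or more stood at -0.16 in this comparison. Relative to it, Tap2 differed by -0.36, H2-T23 by -0.30, Tapbp by -0.28, H2-D1 by -0.25, H2-K1 by -0.12 and B2m by -0.02. In edgeR, 5 members were called lower with median-of-ratios factors and 4 without the erythroid genes, and both fits called Calr higher (0.33 and 0.40). DESeq2, which differs in scaling, dispersion and test, called 1 lower (H2-D1), and with library size alone 0 were lower and 2 higher (Calr, 0.56, and Pdia3, 0.43). The sum over 10 neutrophil markers was 148407 to 154567 CPM (unscaled) in WT libraries without R848 and 120987 to 122601 CPM in Padi4 KO ones. That over 12 erythroid markers, of which 6 globin genes were at 0 in every library, was 71.1 to 93.6 against 866 to 952, and that over 8 monocyte and macrophage markers 487 to 548 against 1175 to 1213. The stromal and endothelial sums given above were also higher in Padi4 KO without R848. In bulk RNA, fewer cells of a type and less RNA per cell cannot be told apart, and the part of these shifts in the members' differences was not tested. The B cell markers summed to at most 17.6 CPM in any library. The T and NK cell markers summed to 32.0 to 39.0 CPM in WT and 18.1 to 20.9 CPM in Padi4 KO libraries without R848, and 9.83 to 11.96 and 4.24 to 8.82 CPM with it. The dendritic cell markers summed to 23.1 to 26.5 and 9.77 to 19.96 CPM without R848 and 53.8 to 54.1 and 44.1 to 47.6 CPM with it.

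After R848, B2m (-0.18 ± 0.070, FDR 0.0585, edgeR) and Nlrc5 (-1.23 ± 0.36, FDR 0.00683, edgeR) were lower in Padi4 KO than in WT, 2 of 10 against 7.81% of all tested genes. Among the 6912 genes averaging 10 counts or more, 928 were lower. B2m read 2507 and 2564 CPM in WT against 2259 and 2206 CPM, and was not called in a model of the R848 libraries alone (-0.17) or with library size alone (0.032). The Nlrc5 difference was not called without R848-treated WT replicate 1 (-0.65). None was higher, against 9.46% of all tested genes, and edgeR gave 0 members at an unadjusted p under 0.05 and DESeq2 0 calls. H2-K1 differed by -0.003 ± 0.082 and Tap1 by -0.01 ± 0.15. H2-D1 differed by -0.14 ± 0.089 (FDR 0.361, edgeR) and H2-T23 by -0.28 ± 0.14 (FDR 0.183, edgeR), and both were called lower when scaled by the median of ratios in edgeR (-0.24 and -0.38). Erythroid markers summed to 17.9 to 24.6 CPM in R848-treated WT and 1110 to 1149 in R848-treated Padi4 KO libraries. Neutrophil markers summed to 125055 to 139034 against 100359 to 101109, and their part was not tested.

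**Figure D4:**
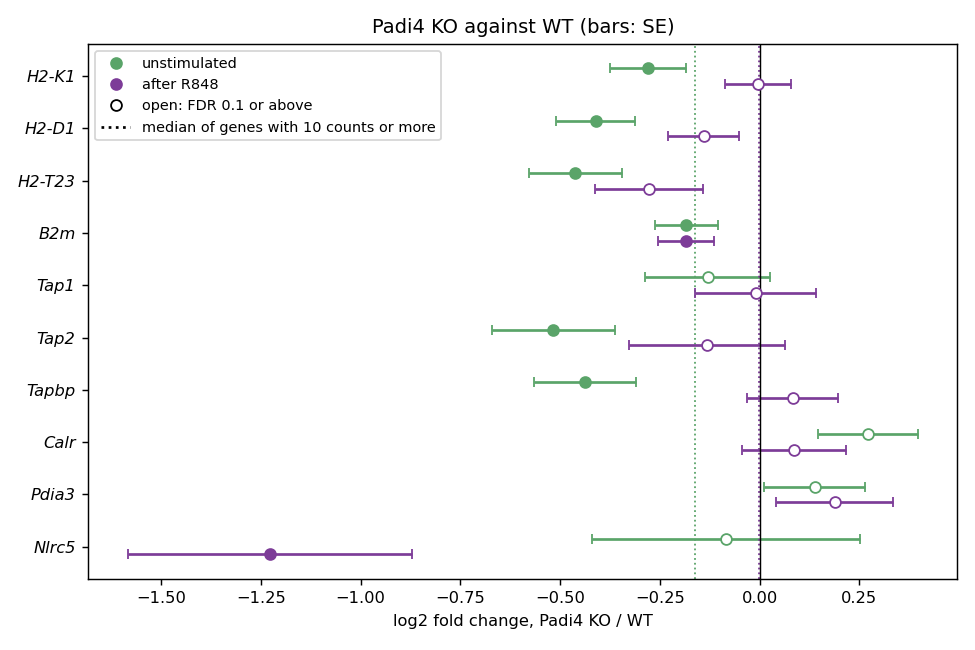
Log2 fold change of Padi4 KO over WT (x axis) for each member, unstimulated and after R848, with bars for the SE, filled points for an FDR under 0.1 and dotted lines at the median over genes averaging 10 counts or more. In unstimulated cells 6 members lie below 0 with an FDR under 0.1, and after R848 B2m and Nlrc5 do.

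Whether the response itself differed between genotypes was tested as the interaction of R848 and genotype. Tapbp alone was called, with a response larger by 0.52 ± 0.17 on the log2 scale in Padi4 KO (FDR 0.0637, edgeR), 1 of 10 against 3.45% of all tested genes. Among the 6912 genes averaging 10 counts or more, 406 were called for a larger response. The median gene averaging 10 counts or more stood at 0.18, so that Tapbp lay 0.34 above it. DESeq2 gave 0.37 (FDR 0.619), and the call was also lost with median-of-ratios factors in edgeR, with library size alone, without the erythroid genes, and without any one of 7 of the 8 libraries, with values from 0.19 to 0.59. No member was called lower, against 1.26% of all tested genes, 1 member (Nlrc5, -1.14 ± 0.48, FDR 0.220, edgeR) had an unadjusted p under 0.05, and DESeq2 called 0. H2-K1 differed by 0.28 ± 0.13 (95% interval 0.03 to 0.52, FDR 0.275, edgeR) and H2-D1 by 0.27 ± 0.13 (0.01 to 0.53, FDR 0.342, edgeR). Relative to the median gene these were 0.10 and 0.09, without the erythroid genes 0.05 and 0.04, and with 1 library left out as low as -0.02 and -0.03. For Tap2 the interval was wider, from -0.10 to 0.87.

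Ordered by CPM per kb of exon, B2m was highest in every group, from 989 ± 53.1 in unstimulated Padi4 KO to 2948 ± 46.8 in R848-treated WT cells (SD, n = 2). H2-K1 and H2-D1 came next. They overlapped in unstimulated WT (173 ± 12.02 and 184 ± 5.81) and unstimulated Padi4 KO (143 ± 4.38 and 139 ± 9.41), and H2-K1 was the higher of the pair after R848 (320 ± 8.82 against 273 ± 8.77 in WT and 319 ± 9.53 against 247 ± 2.74 in Padi4 KO). Tapbp ranked 7 of 10 in both unstimulated groups, overlapping Pdia3 in WT, and 4 of 10 in both R848 groups, where it stood at 82.8 ± 5.07 in WT and 87.9 ± 2.11 in Padi4 KO. Nlrc5 was lowest throughout, between 1.76 ± 0.27 and 4.25 ± 2.47. H2-K1, H2-D1 and H2-T23 share 9.63%, 12.8% and 14.5% of their 50-base exon windows with other genes, chiefly class I copies, and their levels are uncertain to that extent.

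Among 2904 genes averaging 50 counts or more with no library at 0, those whose pattern over the 8 libraries lay closest to H2-K1 were Atf7ip, Fbxo38 and Myd88, the adaptor of Toll-like receptor signalling, with root-mean-square log2 differences of 0.067, 0.072 and 0.076. For Tap1 they were 1110037F02Rik (0.093), Cox7a2l (0.11) and Akt1 (0.12), and for Calr they were Sfpq (0.064), Tmed9 (0.088) and Spcs2 (0.090). Members and neighbours come from the same libraries, and the measure is a description.

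A list of 58 further genes of the class I pathway put the members in context, of which 43 were tested and 14 were at 0 in every library, while Mr1 had 1 count in all. The list was drawn up with earlier results of these data known, and the shares of all tested genes given above apply to its counts. In WT, 11 rose and 6 fell after R848, and in Padi4 KO 15 rose and 8 fell. By DESeq2, 10 rose and 3 fell in WT, and 10 rose and 7 fell in Padi4 KO. Of the peptide supply genes, 3 fell in WT by edgeR and 2 by DESeq2. The peptide supply split by complex. The immunoproteasome subunit Psmb9 fell by 1.81 ± 0.33 and Psmb10 by 1.40 ± 0.48 on the log2 scale in WT (FDR 4.10e-07 and 0.0164, edgeR). Psme2, a subunit of the PA28 activator of the proteasome, rose 3.85-fold there (1.94 ± 0.17, FDR 9.62e-29, edgeR), from 86.6 and 57.0 to 275 and 283 CPM. Psmb9, which lies beside Tap1 and overlaps it, read 74.2 and 58.7 CPM in unstimulated and 14.3 and 23.02 CPM in R848-treated WT libraries. In Padi4 KO, Psmb9 fell by 1.19 ± 0.24 and Psmb10 by 1.43 ± 0.34, and Psme2 rose by 1.64 ± 0.14 (FDR 3.67e-06, 0.000180 and 1.14e-31, edgeR).

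Of 8 other class I chains tested, 1 rose in WT and 4 rose in Padi4 KO, where DESeq2 called 1 and 2 rising. H2-Q4 rose 2.34-fold in WT (1.23 ± 0.22, FDR 3.36e-07, edgeR), though 36.4% of its windows are shared. H2-K2, which is annotated as a transcribed pseudogene, and H2-Q10 were called for a larger response in Padi4 KO, by 1.35 ± 0.40 (FDR 0.0304, edgeR) and 0.84 ± 0.21 (FDR 0.00546, edgeR), while DESeq2 called 0 of these 8. H2-Q10 read 187 and 167 CPM against 163 and 131 CPM in WT and 99.5 and 106 against 155 and 149 CPM in Padi4 KO. Of the H2-Q10 windows, 19.1% are shared with other genes, 14.0% with H2-Q7, and its level is uncertain to that extent. A further 12 class I chains, H2-Q7 and H2-T22 among them, were at 0 in every library, and the table held 0 reads in its line for alignments that were not unique. For near-identical copies such as H2-T22, with 53.5% of its windows shared, a 0 cannot be read as absence.

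Of 11 folding and loading genes of the endoplasmic reticulum, 2 rose and 2 fell in WT and 0 rose and 3 fell in Padi4 KO. DESeq2 called 1 rising and 1 falling in WT and 3 falling in Padi4 KO. For the R848 response within Padi4 KO, 0 rose at an unadjusted p under 0.05 by edgeR and DESeq2 called 0 rising. Uggt1, the sensor of unfolded glycoproteins, fell by 0.52 ± 0.20 and P4hb by 0.51 ± 0.14 in WT (FDR 0.0393 and 0.00156, edgeR), while Hspa5, the main chaperone of this compartment, rose by 0.49 ± 0.13 (FDR 0.000951, edgeR), at 406 and 266 CPM after R848 against 226 and 248.6 CPM.

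Of 15 regulators, 6 rose and 1 fell in WT and 8 rose and 0 fell in Padi4 KO, where 1 was lower at an unadjusted p under 0.05 and DESeq2 called 0 lower. DESeq2 called 6 rising and 0 falling in WT and 7 rising in Padi4 KO. The interferon receptor chains Ifnar1 (3.13-fold, 1.64 ± 0.15, FDR 1.65e-26, edgeR) and Ifngr2 (3.05-fold, 1.61 ± 0.13, FDR 3.04e-31, edgeR) rose most in WT. Nfya, a subunit of the factor that binds CCAAT, rose by 0.75 ± 0.19 (FDR 0.000714, edgeR). Ifnb1 and Ifng were at 0 in every library, where 3 counts would be 2.55 to 5.33 CPM. After R848, 4 of the 43 genes were called lower in Padi4 KO cells, against 7.81% of all tested genes, among them H2-T24, Psme2 and Irf9. DESeq2 called 1 of the 43 lower, and 0 of the class I chains and 0 of the peptide supply genes. H2-T24 and Psme2 were thus not called by DESeq2. The log2 difference from WT was -0.40 ± 0.15 for H2-T24 (FDR 0.0587, edgeR), -0.35 ± 0.12 for Psme2 (FDR 0.0359, edgeR) and -0.34 ± 0.13 for Irf9 (FDR 0.0633, edgeR). Of the 43, 0 were higher after R848, with 0 at an unadjusted p under 0.05 and 0 called by DESeq2. In unstimulated cells 2 were higher and 6 lower, and DESeq2 called 1 higher and 2 lower.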

How the data were processed

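The authors trimmed reads with cutadapt 1.16, aligned them with STAR 2.5.3a and counted them per gene with HTSeq 0.6.1p1, and FastQC 0.11.7 is also named in the submitters' processing notes. The deposited values are raw read counts per gene symbol, 1 table for 8 libraries, with no normalization, and HTSeq's summary lines were left out. The annotation and the strand setting are not given in the sources used here. Genes with at least 1 count in 2 of 8 libraries were fitted with edgeR 4.0.16 (quasi-likelihood, robust, TMM factors) in R 4.3.3, with 1 mean per group and all 4 groups sharing the dispersion. Contrasts were R848 against no stimulation in each genotype, their difference, and Padi4 KO against WT in each condition. All p-values were two-sided and adjusted over 12254 genes, a call was an FDR under 0.1, and intervals are 1.96 standard errors either side (95%). Standard errors were derived from the F statistic. The script was tested on simulated counts.

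Alternatives were DESeq2 1.42.0, median-of-ratios (RLE) factors, library size alone, factors without 6 erythroid genes, other filters, a replicate block, thinning, separate models and leaving out each library. Levels per kb used the union of GENCODE exons on GRCm38. Depth was 562446 to 1177972 counts a library. Every member is described. Of the further pathway genes, those named were, in each role, up to 3 called genes averaging 10 counts or more with the largest change in the WT response, the difference of response or Padi4 KO against WT after R848, while others (H2-Q7, H2-T22, Ifnb1, Ifng and the Padi4 KO values) were chosen after their values were seen. Some results are not reported here. The members and lists were chosen with earlier results of these data known.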

Additional observations from a re-analysis of the deposited data

Results flagged for a closer look

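Tapbp is listed because the test of the difference between the R848 responses of the 2 genotypes called it, with a response larger by 0.52 ± 0.17 (log2, SE) in Padi4 KO cells (FDR 0.0637, edgeR's quasi-likelihood test). Its levels were 237 and 218 CPM against 287 and 313 CPM with R848 in WT, and 159 and 174 against 314 and 324 CPM in Padi4 KO. The genotypes differed without R848 (log2 -0.44 ± 0.13) and stood at 0.08 ± 0.11 after it. DESeq2 did not call the difference (FDR 0.619). With 2 libraries in each group, no library could be tested as standing apart from its own group.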

How the results depend on the processing

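Calls for the R848 responses of B2m, H2-K1 and H2-D1 in both genotypes, and of Tapbp in Padi4 KO and H2-T23 in WT, kept their direction and side of the threshold under the 17 alternatives run for each. By DESeq2, 1 member fell in Padi4 KO, 0 had a different response and 1 was lower in unstimulated Padi4 KO. With median-of-ratios factors the difference of response gave 0, unstimulated Padi4 KO cells 1 higher and R848-treated ones 4 lower. Of all tested genes, the same factors gave 1309 higher in unstimulated and 1359 lower in R848-treated Padi4 KO. With library size alone 5 fell in Padi4 KO, 0 had a larger response there, 2 were higher and 0 lower in unstimulated Padi4 KO, and 3 were higher and 1 lower after R848. All tested genes shifted as well in that setting, with 3823 falling in Padi4 KO against 1947 in the main fit. In Padi4 KO, 1901 were higher unstimulated against 1170, and 1870 after R848 against 1159. Without the erythroid genes 5 members fell in Padi4 KO, 0 had a larger response there, 1 was higher unstimulated and 4 were lower after R848. Among all tested genes, 2512 then fell in Padi4 KO, 1480 were higher unstimulated and 1332 were lower after R848. The filterByExpr filter gave 1 higher in unstimulated Padi4 KO, separate models gave 2 there and 1 lower after R848, and thinned counts gave 1 falling in Padi4 KO. At an FDR under 0.05, 0 had a larger response and 1 was lower after R848. Over 2-fold, 1 rose and 0 fell in WT, 2 rose and 0 fell in Padi4 KO, 0 had a larger response, 0 were lower in unstimulated and 1 in R848-treated Padi4 KO.

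Leaving out 1 library at a time gave 3 to 5 rising and 1 to 3 falling in WT, where 1 was without R848-treated replicate 1, and 4 to 5 rising and 0 to 5 falling in Padi4 KO, where 0 was without unstimulated Padi4 KO replicate 2. It gave 0 to 1 with a larger and 0 to 1 with a smaller response in Padi4 KO. The smaller ones were B2m (log2 -0.29) without R848-treated WT replicate 1 and Nlrc5 (-1.91) without R848-treated WT replicate 2. Unstimulated Padi4 KO cells had 0 to 2 higher and 3 to 5 lower, 3 being without unstimulated WT replicate 1, and R848-treated ones 2 to 3 lower. Values that changed sign and were called in at least 1 of the fits compared were Tap1 in Padi4 KO, at -0.032 with library size alone and between -0.016 and 0.40 over the libraries left out (the former without R848-treated Padi4 KO replicate 1), and, with library size alone, H2-K1 (0.0076) and B2m (0.10) in unstimulated cells and H2-K1 (0.21) and B2m (0.032) after R848. The cause was not tested. Values called in neither fit also changed sign, for 20 of the 50 member values.

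Over all genes, the difference of response was called higher for 423 and lower for 154 genes, and by DESeq2 for 35 and 90. Unstimulated Padi4 KO cells had 1170 higher and 1763 lower genes, with library size alone 1901 and 561, and by DESeq2 475 and 586. After R848 these were 1159 and 957, with library size alone 1870 and 417, and by DESeq2 387 and 621. The responses gave 1657 higher and 1964 lower in WT and 2352 and 1947 in Padi4 KO, with library size alone 1075 and 3127, and 1264 and 3823, and by DESeq2 1285 and 979, and 1206 and 915. Replicate numbers did not pair the libraries, as deviations of same-numbered libraries correlated at -0.020 to 0.020 over 6912 genes. With the replicate number as a block, 419 and 156 genes were called for the difference of response, and no count of members moved by over 1.5 times. Depth limits Nlrc5, with 12 to 34 counts a library.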
